A study of Mus musculus with 5 samples.

Results

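The genes described here are the transcriptional targets of the tumour suppressor p53 that are most often used to read out its activity, together with the p53 gene itself. The 10 genes were taken by symbol, and all probe sets that the platform annotation assigns to exactly 1 of these symbols were used. This gave 19 probe sets for 9 genes, out of 45037 probe sets and 18193 genes on the arrays. No level of Trp53, the p53 gene, was analysed here, so the description rests on its targets and on genes that act around it.

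RNA came from cultured cells of 2 sources, a CD8 T cell clone and spleen cells that also carried markers of other cell types. The first was the cytotoxic T cell clone G9C8, specific for an insulin B chain peptide and kept in culture, with 3 frozen vials giving 1 array each. All 3 vials are of 1 clone. The second was spleen cells of NOD.G9C8 transgenic mice on the NOD/LtJ background, an autoimmune diabetes strain, aged 4 to 8 weeks, with 2 mice giving 1 array each. The promoter of the transgene and the sex of the mice are not stated in the labels. In both kinds of cells, stimulation with the peptide (10 µg/ml) lasted 3 days. A rest period of 2 days came after it, and the IL2 dose was 5 IU/ml. An unstimulated group was not analysed here. Nothing in the labels describes irradiation, a drug or another p53-activating treatment.

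p53 is a transcription factor that is kept scarce by the ubiquitin ligase Mdm2 and stabilised by DNA damage and other stresses. Its targets halt the cell cycle (Cdkn1a, encoding p21), restrain growth signalling and oxidative damage (the sestrins), aid DNA repair, feed back on p53 (Mdm2, Ccng1, Trp53inp1) or promote cell death. Several of these genes also answer to other factors, Sesn1 and its relative Sesn3 to FOXO proteins and Sesn2 to the stress factor ATF4, so a change in one of them is not specific to p53. In dividing lymphocytes p53 acts as a check on replication stress and on survival.

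Differences are given as clone minus transgenic on the log2(signal + 20) scale, and genes with an adjusted p under 0.05 count as called (limma, Benjamini-Hochberg over 12446 genes). The brightest probe set stands for a gene, and all 9 genes passed the filter on dim signals. The arrays differed over much of the transcriptome, with 43.8% of genes called, 22% higher and 21.7% lower in clone. The identity markers Cd3e and Cd8a were bright on every array, at mean signals (± SD over 3 clone and 2 transgenic arrays) of 5839 ± 600 and 8808 ± 492 in clone and 5102 ± 316 and 14192 ± 1849 in transgenic cells. Of the 6 CD8 T cell markers 0 were called higher, 3 lower (Cd8a by -0.68, Cd8b1 by -0.65 and Cd2 by -1.75) and 3 not called, and their summed signal was 52628 to 59360 in clone and 65477 and 70842 in transgenic cells. Cd8a was not called with the mean over its probe sets (-0.20, adjusted p = 0.0875) or without the first transgenic array (-0.32, adjusted p = 0.115). Cd4 was dim, at 38.8 ± 6.15 and 44.9 ± 8.13. Xist was high in clone alone (13885 ± 1061 against 301 ± 19.4) and the Y-linked Eif2s3y in transgenic cells alone (2370 ± 84.2 against 5.23 ± 3.20), so source and sex cannot be told apart; all 9 targets are autosomal.

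The targets did not move as one block. Sesn1, Gadd45a, Trp53inp1 and Mdm2 were lower in clone, Sesn2 and Phlda3 were higher, and Cdkn1a, Ccng1 and Zmat3 were not called. That is 2 of 9 higher beside 22% of all genes, and 4 of 9 lower beside 21.7%. The median difference of the 9 genes was -0.12, beside -0.01 over all genes tested. For 6 of the 9 the 2 groups did not overlap, beside 64.5% of all genes. Among the 19 probe sets, each fitted in a model of all 45037, 2 were higher and 9 lower, beside 11.4% and 12.9% of all probe sets, or 24.3% in either direction. The groups did not overlap in 13 of the 19, beside 51.3% of all probe sets. All 19 lay above the filter level, whereas the shares over all probe sets include those below it. These shares are thus not of probe sets of like brightness, and the shares over genes above are the closer measure. Probe sets of 1 gene share their target, so these are not independent counts.

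**Figure D1:**
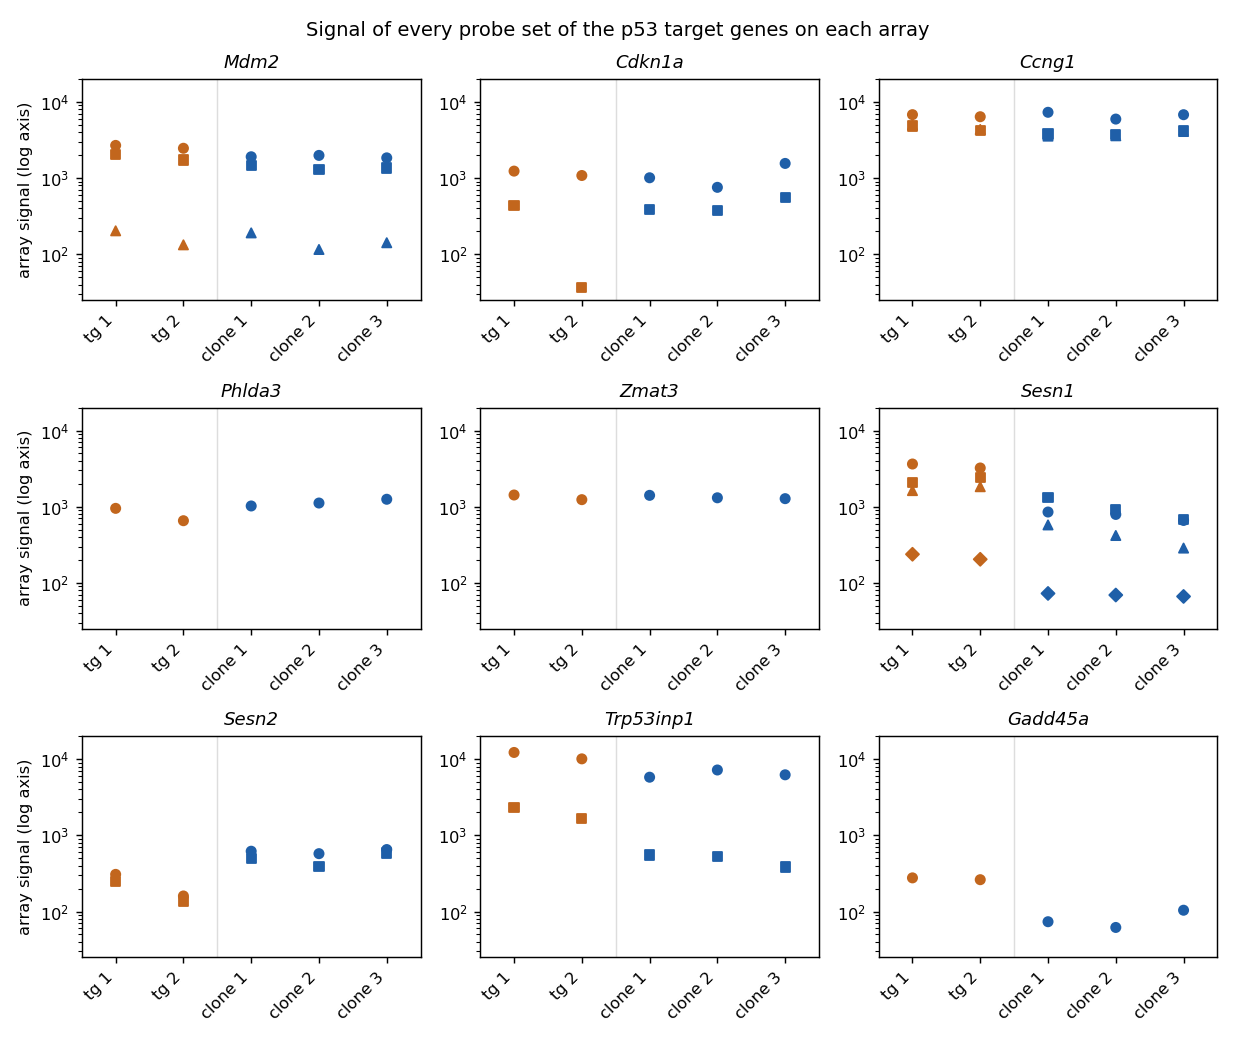
Array signal (vertical, log axis) of all 19 probe sets of 9 p53 target genes on the 2 transgenic (orange) and 3 clone (blue) arrays; each marker shape is 1 probe set of the gene. All 4 Sesn1 probe sets sit lower on the clone arrays, both Sesn2 probe sets sit higher, and the second Cdkn1a probe set drops to 36.2 on the second transgenic array.

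Cdkn1a encodes p21, an inhibitor of cyclin-dependent kinases and the best known p53 target. Its brightest probe set read 1009, 756 and 1556 on the clone arrays and 1234 and 1081 on the transgenic arrays. The groups overlapped fully, with both the highest and the lowest value in clone. The difference was -0.12 (95% confidence interval -0.70 to 0.46, adjusted p = 0.731). The second Cdkn1a probe set read 385, 371 and 552 in clone and 433 and 36.2 in the 2 mice. The low value of the second mouse alone set that probe set's difference of 1.49 (-0.33 to 3.31), which was not called (adjusted p = 0.221). The mean over both probe sets gave 0.68 (adjusted p = 0.228).

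Ccng1 encodes cyclin G1, which recruits a phosphatase that activates Mdm2. Its brightest probe set read 7297, 5945 and 6786 in clone and 6796 and 6382 in transgenic cells. These values overlapped, and the difference was 0.01 (-0.22 to 0.25, adjusted p = 0.926). Its other probe sets gave -0.20 and -0.31 in the fit of all probe sets (adjusted p = 0.208 and 0.0720), so that even the sign was not shared among the 3. Zmat3 encodes an RNA-binding zinc finger protein induced by p53. It read 1409, 1309 and 1275 in clone and 1424 and 1237 in transgenic cells. The clone values lay between those of the 2 mice, and the difference was 0.00 (-0.25 to 0.25, adjusted p = 0.986).

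Promoter sequences are shown for Cdkn1a and Ccng1 because these were the targets whose RefSeq window (GRCm38.p6, 250 bases before to 50 after a transcript start) held a p53 full-site consensus. The search took 2 decamers without a spacer, with both CNNG cores intact and at most 2 other mismatches in 20 bases, on both strands. Windows were found for 8 of the 10 genes, 10 windows in all, and Zmat3 and Trp53inp1 were not matched. A site was present in 2 of these 10 windows and in 0.326% of all 32851 windows. The 250 bases before the start follow, 5′ to 3′ on the gene's strand, with the match in capitals.
Cdkn1a, chr17:29090729-29090978, plus strand: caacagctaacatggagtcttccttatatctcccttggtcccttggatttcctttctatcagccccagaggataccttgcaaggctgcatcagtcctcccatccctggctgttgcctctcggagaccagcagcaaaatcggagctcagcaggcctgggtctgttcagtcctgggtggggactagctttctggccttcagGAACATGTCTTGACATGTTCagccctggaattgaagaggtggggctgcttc
Ccng1, chr11:40755287-40755536, minus strand: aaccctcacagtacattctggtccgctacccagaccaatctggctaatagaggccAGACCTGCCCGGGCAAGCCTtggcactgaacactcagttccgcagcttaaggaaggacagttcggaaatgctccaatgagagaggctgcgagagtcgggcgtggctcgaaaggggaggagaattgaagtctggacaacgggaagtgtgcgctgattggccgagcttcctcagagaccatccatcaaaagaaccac
The Cdkn1a match lies at bases -51 to -32 before the first of 2 RefSeq starts and has 1 mismatch. The Ccng1 match lies at bases -195 to -176 and also has 1 mismatch. Both genes with a match were among the 3 that were not called. A match is a run of letters, and no binding was measured. The absence of a match in the other windows says only that these letters are not in those 300 bases.

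Of the genes that feed back on p53, Mdm2 and Trp53inp1 were lower in clone, and Ccng1 was not called. Mdm2 encodes the ligase that marks p53 for degradation and is itself induced by p53. It read 1904, 1984 and 1841 in clone and 2683 and 2460 in transgenic cells. Every clone array lay below both mice, with a difference of -0.43 (SE 0.09, adjusted p = 0.00627), or 1.34-fold. A second probe set gave -0.44 (adjusted p = 0.0221), while the third and dimmest, at 116 to 203, gave -0.15 and was not called (adjusted p = 0.763). The Mdm2 call was lost when its probe sets were averaged (-0.34, adjusted p = 0.0652), when only the dimmest probe set was kept because the others are marked as matching several transcripts (-0.15, adjusted p = 0.692), and without the first transgenic array (-0.36, adjusted p = 0.0699).

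Trp53inp1 encodes a nuclear and autophagy-linked protein that favours phosphorylation of p53. Its brightest probe set read 5792, 7204 and 6228 in clone and 12239 and 10086 in transgenic cells. Both mice lay above all 3 clone arrays, and the difference was -0.80 (SE 0.12, adjusted p = 0.000946). A dimmer probe set of the same gene read 552, 533 and 384 in clone and 2341 and 1679 in transgenic cells. There the groups stood further apart, with a difference of -1.99 (adjusted p = 0.000666 in the fit of all probe sets), so the direction was shared and the size was not. The mean over both probe sets gave -1.39 (adjusted p = 0.000134).

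The sestrins, stress-induced inhibitors of mTORC1 signalling, went in opposite directions. Sesn1 had the largest difference of the 9 targets, and 482 of the 12446 genes tested had a larger one. Its brightest probe set read 851, 792 and 660 in clone and 3633 and 3222 in transgenic cells. The clone arrays were all far below the mice, with a difference of -2.14 (-2.43 to -1.84, SE 0.13, adjusted p = 7.14e-06), or 4.39-fold. The other 3 probe sets gave -1.25, -2.02 and -1.43, each called lower in the fit of all probe sets (adjusted p = 0.0109, 0.00176 and 0.00474). Sesn2 read 619, 575 and 651 in clone and 307 and 160 in transgenic cells. Here every clone array lay above both mice, and the second mouse was below the first by -0.86 on the log2 scale. The difference was 1.38 (0.84 to 1.93, SE 0.24, adjusted p = 0.00176), or 2.61-fold, and 1.30 in its second probe set (adjusted p = 0.0142). Without the first transgenic array it was 1.82 (adjusted p = 0.000519) and without the second 0.95 (adjusted p = 0.00647).

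Gadd45a and Phlda3 also parted. Gadd45a encodes a small stress sensor that binds p21 and PCNA and activates p38 kinases. It read 73.5, 61.8 and 104 in clone and 277 and 262 in transgenic cells. The groups were well separated, with a difference of -1.56 (SE 0.25, adjusted p = 0.00136), or 2.94-fold. Its mean clone signal of 79.8 lay under the filter level of 88.2, so this fold is understated by the added 20. Phlda3 encodes a pleckstrin homology protein that competes with AKT for membrane lipids. It read 1022, 1117 and 1252 in clone and 951 and 655 in transgenic cells. The lowest clone array was just above the first mouse, and the difference was 0.50 (0.12 to 0.89, adjusted p = 0.0392). In the fit of all probe sets it was not called (adjusted p = 0.0763), nor with the replicate block (0.43, adjusted p = 0.0822). The third clone array has no same-numbered mouse, so it adds nothing to the difference under that block. The Phlda3 call also ended without the second transgenic array (0.24, adjusted p = 0.316), without the second clone array (0.51, adjusted p = 0.0594) and without the third (0.43, adjusted p = 0.105).

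**Figure D2:**
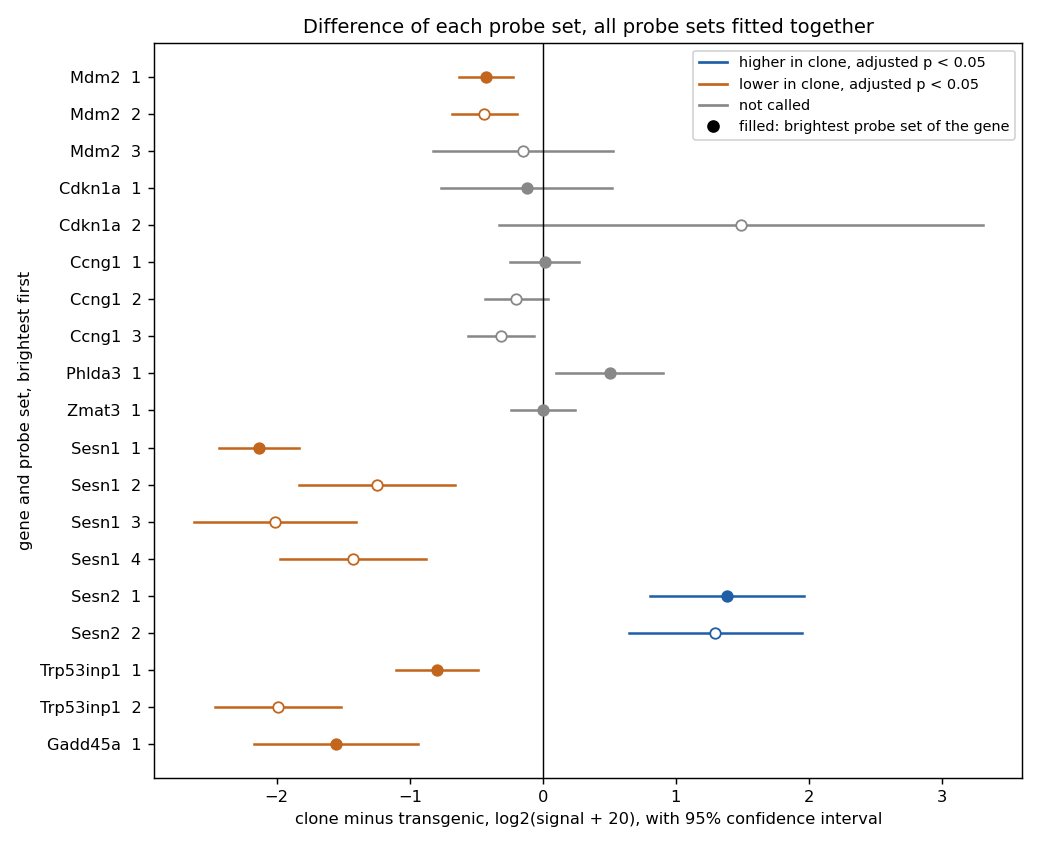
Difference of each of the 19 probe sets, clone minus transgenic on the log2(signal + 20) scale (horizontal), with its 95% confidence interval from the fit of all 45037 probe sets. Sesn1 runs from -2.14 to -1.25, Sesn2 lies at 1.38 and 1.30, and the widest interval is that of the second Cdkn1a probe set.

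Between the 2 mice, the brightest probe sets of all 9 targets read lower in the second than in the first, by a median of -0.19, whereas 6413 of the 12446 genes tested read higher in the second. This was not so in every probe set, since 2 of the 4 for Sesn1 read higher in the second mouse, by 0.20 and 0.17. Of the further p53 lists described below, the 4 arrest targets tested were also all lower in the second mouse. The other lists did not share this. Read higher in the second mouse were 13 of 14 DREAM cell cycle genes, 9 of 18 regulators and 4 of 12 repair and metabolism targets. The same held for 3 of 10 apoptosis targets and 2 of 8 relatives of the targets. Of the markers of myeloid cells 7 of 7 tested were higher in the second mouse. Their summed signal was 5618 and 8541 on the transgenic arrays and 1387 to 1819 in clone. Of the 8 myeloid markers 7 were tested and 6 called lower in clone, led by Lyz2 (279 ± 45.1 against 4523 ± 1451), and none was listed at 0. Cd68 went the other way, at 570, 828 and 627 in clone against 399 and 546, and was not called (0.50, adjusted p = 0.0700). Itgam lay under the filter level. B cell markers were called lower in 2 of 4 tested, with sums of 8157 and 10467 in transgenic cells against 3995 to 5359 in clone. Most of each sum was Ighm, at 7044 and 9178 against 3449 to 4883. Cd79b was also lower in clone (26.7 ± 22.0 against 624 ± 42.8), while Ms4a1 and Cd22 were not called. In clone Cd79b was thus under the filter level although Ighm was bright, so these sums are no measure of B cells. Dendritic cell markers were called lower in 3 of 5, with sums of 2137 and 2759 in transgenic cells against 600 to 645. Of the natural killer cell markers 2 were measured and 1 was tested, Eomes, a transcription factor gene that activated CD8 T cells express too. It read 72.8 ± 15.2 in clone against 1608 ± 130 (-4.14, adjusted p = 1.36e-06), while Ncr1, below the filter level, read 83.2 ± 7.57 against 66.9 ± 16.6. Sums were 1594 and 1755 for the natural killer list in transgenic cells against 141 to 181 in clone, 185 and 372 for CD4 T cell markers against 169 to 204, and 375 and 426 for erythroid markers against 452 to 587. The erythroid markers were mixed. Gata1 was called higher in clone (0.73, adjusted p = 0.00743), while Hba-a1 was lower and not called (-0.70, adjusted p = 0.122). The part of these other cell types in the target genes' differences was not tested. In cultures measured whole, fewer cells of a type and less RNA per cell cannot be told apart.

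The regulators of p53 were lower in clone or not called, with 1 exception. Of 18 tested, 9 were lower beside 21.7% of all genes, 1 was higher beside 22%, and 8 were not called, with a median of -0.30. The number lower was 6 with the replicate block, 6 with eBayes without trend and 10 without the first clone array. The kinase gene Atm, which activates p53 after DNA breaks, read 978, 1015 and 584 in clone and 2544 and 2547 in transgenic cells. All 3 clone arrays were far below the mice (-1.59, SE 0.22, adjusted p = 0.000532). Pml, the organiser of nuclear bodies that hold p53, was lower by -1.18 (adjusted p = 0.000160) and the Mdm2-binding Daxx by -0.77 (adjusted p = 0.000823). The p53 kinase gene Hipk2 was lower by -0.82 (adjusted p = 0.00267), a size that rested on the probe set used. It was -2.16 without the probe sets marked _x_at, and -2.27, -1.91 and -2.30 without the first, the second and the third clone array, since another probe set was then the brightest. Also lower were 2 negative regulators named after their values were seen, the Mdm2 partner Mdm4 by -0.72 (adjusted p = 0.00255) and the phosphatase gene Ppm1d by -0.74 (adjusted p = 0.00381). The 1 higher gene was the acetyltransferase gene Kat5 (0.39, adjusted p = 0.0223), also named after its values were seen. It was not called without either transgenic array or without the first clone array, at differences of 0.45, 0.34 and 0.35. Cdkn2a, encoding the Mdm2 inhibitor ARF and the CDK inhibitor p16, was dim, at 50.7 to 70.3 in clone and 69.5 and 90.5 in transgenic cells, and was not tested.

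Targets that promote cell death were split. Of 10 tested, 5 were higher beside 22% of all genes, 3 were lower beside 21.7%, and 2 were not called, with a median of 0.31. Perp, a membrane protein gene linked to p53-dependent death and to cell adhesion, read 589, 537 and 707 in clone and 80.6 and 36.5 in transgenic cells. The clone arrays lay far above both mice (3.06, SE 0.26, adjusted p = 4.14e-05). Its mean transgenic signal of 58.6 was under the filter level of 88.2, and the difference was 2.63 with 50 added to each signal and 3.46 with 1 added. Bbc3, encoding the BH3-only protein PUMA, was higher by 1.76 (adjusted p = 3.99e-05), at 2474 ± 213 in clone against 725 ± 166. The death receptor gene Fas went the opposite way, at 87.0, 61.5 and 73.4 in clone against 854 and 831, a difference of -3.21 (SE 0.19, adjusted p = 6.94e-06). Its mean clone signal of 74.0 was likewise under the filter level, and the difference was -2.85 with 50 added and -3.51 with 1 added. Aen, a nuclease gene induced by p53, was higher by 0.64 (adjusted p = 0.0151). That value was -0.22 with the mean over its probe sets and not called (adjusted p = 0.448), and 0.40 and not called without the second transgenic array (adjusted p = 0.133). Without that array 3 of these genes were called higher.

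Targets linked to arrest had 4 tested members, of which 3 were higher and 1 lower (median 0.53), beside the same 22% and 21.7%. The stress-responsive kinase gene Plk3 was higher by 1.34 (563 ± 71.8 against 210 ± 41.5, adjusted p = 0.000448). Gtse1, which shuttles p53 out of the nucleus, was higher by 0.58 (adjusted p = 0.0158) and the phosphatase gene Ptprv by 0.48 (adjusted p = 0.0145). Btg2, an antiproliferative gene, read 1734, 2324 and 1768 in clone and 4776 and 4478 in transgenic cells, with no overlap (-1.26, SE 0.13, adjusted p = 0.000148). Without the second transgenic array 1 of the 3 higher calls was left. Gtse1 was not called without either transgenic array (0.60 and 0.56) or with the replicate block (0.53, adjusted p = 0.0647), and Ptprv was not called without the second (0.40).

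Repair and metabolic targets were divided as well, with 4 higher, 6 lower and 2 not called of 12 (median -0.30), beside 22% and 21.7% of all genes. Ephx1, encoding an epoxide hydrolase, was lower by -2.11 (150 ± 33.6 against 710 ± 157, adjusted p = 0.000129). The carbonyl reductase gene Dcxr was lower by -1.06 (adjusted p = 0.00487), as was Xpc, a sensor of bulky DNA lesions (395 ± 66.1 against 805 ± 11.7, adjusted p = 0.00126). Gpx1, encoding the peroxide-reducing glutathione peroxidase, was higher by 0.84 (9021 ± 919 against 5016 ± 245, adjusted p = 0.000282). Dcxr was not called without the first transgenic array (-0.77, adjusted p = 0.0595), and without that array 2 genes of the list were called higher.

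Relatives of the 9 targets by sequence were lower in clone in 7 of 8 tested, beside 21.7% of all genes, with a median of -1.68, and 1 was higher. Of the 7, Mdm4 is also counted among the regulators, so the lists are not separate. The Gadd45 family was lower throughout the 3 members measured: beside Gadd45a, Gadd45b read 485, 505 and 362 in clone against 2235 and 1752 (-2.10, adjusted p = 3.5e-05, or -1.29 with the mean over its probe sets) and Gadd45g read 92.9, 119 and 106 against 378 and 481 (-1.83, adjusted p = 0.000186). Trp53inp2, a relative of Trp53inp1 that acts in autophagy, was lower as well (-1.95, adjusted p = 0.000323). A further 2 relatives, named after their values were seen, were lower, Sesn3 by -1.73 (adjusted p = 6.94e-06) and Ccng2, encoding cyclin G2, by -1.62 (adjusted p = 0.000307). So Sesn2 was the only one of 3 sestrin genes that was higher in clone. Phlda1 read 1924, 2539 and 3575 in clone and 582 and 562 in transgenic cells, and was higher by 2.14 (adjusted p = 0.000114), the direction of Phlda3. The p53 relatives Trp63 and Trp73 lay under the filter level, at 43.6 ± 15.2 and 80.2 ± 12.1 in clone and 44.1 ± 1.27 and 78.3 ± 17.3 in transgenic cells.

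Cell cycle genes that p53 represses through p21 and the DREAM complex were higher in clone in 9 of 14 tested beside 22% of all genes, lower in 0 and not called in 5, with a median of 0.74. Cdc25c (1.37, adjusted p = 0.00397) and Cdc20 (1.34, adjusted p = 0.00233) led, followed by the mitotic kinase gene Plk1 (1.19, adjusted p = 0.00834) and the cyclin gene Ccnb2 (1.10, adjusted p = 0.00293). The second clone array read below the other clone arrays in all 14, by a median of -0.75, and Cdkn1a was also lowest on that array, by -0.72. The number called higher was 3 without the first transgenic array and 5 without the second, without the first clone array or without the third, and 13 without the second clone array. Plk1 was not called without the first transgenic array (0.86, adjusted p = 0.0797).

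**Figure D3:**
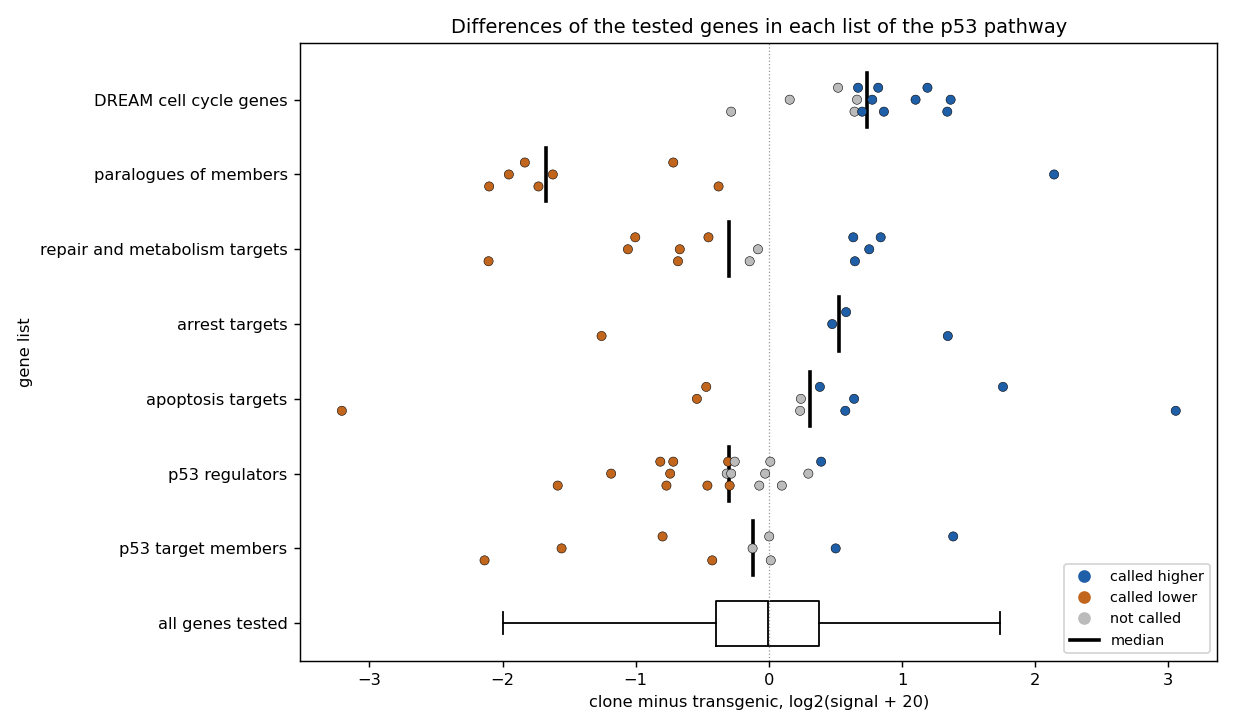
Difference of each tested gene (horizontal, clone minus transgenic, log2(signal + 20)) in the p53 target genes and 6 further lists of the pathway; points are coloured by call and black bars are medians. The box for all 12446 genes spans the quartiles (-0.40 to 0.38) and its whiskers hold the central 95% of genes. The paralogues have their median at -1.68 and the DREAM genes at 0.74.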

How the data were processed

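Total RNA (8 µg) was labelled with biotin and measured on 1-colour Affymetrix mouse arrays, per the labels' protocols. The authors deposited 1 linear intensity per probe set and array, which GCOS, the scanner maker's software, produced per the submitters' processing notes. The values show a scaling by the authors to a 2% trimmed mean of 500 on all 5 arrays, and they were used as deposited. Detection calls were not analysed here, and the number of arrays limits the precision (median SE of a difference 0.16). No 2 arrays were copies, with 85 to 159 identical values in a pair.

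Of 45101 probe sets, 64 controls were left out and 34945 have 1 gene symbol. For each gene the brightest probe set was used if it had a mean signal of at least 88.2, the 40th percentile, which left 12446 genes. Groups were taken from the titles, 3 clone vials and 2 mice, and compared on log2(signal + 20) by a two-sided test in limma 3.58.1 under R 4.3.3 (lmFit, then eBayes with a trend on intensity). Benjamini-Hochberg adjustment ran over all genes and, in a second fit without a filter, over all 45037 probe sets. The fit was tested on simulated data with 200 of 12446 genes changed, far fewer than were called here. It recovered 18.7% of 1.5-fold, 50.7% of 2-fold and 86.6% of 4-fold changes, and 3.53% of calls fell on unchanged genes. With fewer genes changed the adjustment is stricter, so these shares need not hold for the data. A gene that was not called may still differ. Only variation among vials of 1 clone and between 2 mice enters the p-values.

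The members and lists were chosen with earlier results of these data known. The rule for named genes takes all members and up to 4 called genes of largest difference per list, and other genes are marked in the text. Of the p53 lists, Trp53, Rpl5, Bax, Gls2 and Ccnb1 had no value used here, and some listed marker genes are not reported here. Replicate numbers link no vial to a mouse in the labels, so the fit has no block. Alternatives were other scalings, pseudocounts, filters, probe set choices, eBayes settings, the replicate block and each array left out. Sequences are from RefSeq (GRCm38.p6). Figures were drawn with matplotlib 3.10.9.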

Additional observations from a re-analysis of the deposited data

How the results depend on the processing

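Sesn1, Sesn2 and Trp53inp1 kept their direction and call under all 16 alternatives, at -2.22 to -1.71, 0.95 to 1.82 and -1.39 to -0.66, and Gadd45a under the 15 that measured it (-1.77 to -1.31). Gadd45a fell under the 60th percentile filter, which left 3 members lower. The number of members called higher was 1 in place of 2 without a filter, with eBayes without trend and with the replicate block. Phlda3 was the gene lost in each, and without a filter more genes enter the adjustment. Leaving out each array gave 1 to 2 members higher and 3 to 4 lower, and 1938 to 2720 of all genes higher and 1697 to 2795 lower. The lowest counts over all genes came without the first transgenic array. With eBayes without trend 5 DREAM genes and 2 repair and metabolism targets were called higher, in place of 9 and 4. For member probe sets, a filter before adjustment gave 3 higher and 10 lower in place of 2 and 9.

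Signs of uncalled members were not stable. Ccng1 was -0.13 under quantile normalization, -0.17 with the mean over probe sets, -0.20 without probe sets marked as shared, -0.031 without the second transgenic array and -0.052 without the first clone array, and leaving out arrays gave -0.052 to 0.095. Zmat3 was -0.097 without the second transgenic and -0.038 without the first clone array, in a range of -0.097 to 0.10. Cdkn1a was 0.68 with the mean over probe sets and 0.12 without the second clone array, in a range of -0.39 to 0.12 over the arrays left out. With the mean over probe sets Aen was -0.22. The cause was not tested. Of 48 called genes of the other p53 lists, 28 kept direction and call under all alternatives that measured them.

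The replicate block changed no call of a member other than Phlda3. The third clone array shares its number with no mouse, so the block gives the difference without that array. Same-numbered arrays deviated together by correlations of -0.03 and -0.08 over 12446 genes. With 2 transgenic arrays, each clone array has the same value with the opposite sign against the other mouse. The third clone array gave -0.06 and 0.06. These values cannot decide a pairing. Detection above background was not analysed here, so the dim values, Gadd45a and Fas in clone, Perp in transgenic cells and the second Cdkn1a probe set in the second mouse, limit what their differences can show.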
